A study of Mus musculus with 8 samples.

Results

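The semaphorins, the plexins, the ephrins and the Eph receptors are cell surface and secreted proteins by which cells attract or repel their neighbours. The genes of these families were taken by their symbols, which gave 51 of the 24062 genes of the expression table. They comprise 20 semaphorins of classes 3 to 7, 9 plexins, 5 A-type and 3 B-type ephrins, 9 EphA and 5 EphB receptors. Of the 51 genes, 37 reached 1 FPKM, a fragment count scaled by gene length and library depth, in 2 or more of the 8 libraries. Only these were tested, and the other 14 are given as levels.

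RNA was sequenced in 2 libraries from each of 4 states. ESC are R1 embryonic stem cells of a 129 mouse strain, kept on mitomycin-treated embryonic fibroblasts with serum, leukaemia inhibitory factor and inhibitors of MEK and GSK3, and replated before harvest to take off the feeder cells. The other groups are HC11, an epithelial line from the mammary gland of a BALB/c mouse that makes milk protein when given lactogenic hormones. Normal cells (N) were grown to confluence with EGF and insulin. Primed cells (P) then had the glucocorticoid hydrocortisone with insulin and no EGF for 48 h, and PRL treated cells (PRL) had hydrocortisone, insulin and prolactin for 72 h after that. ESC and N therefore differ in tissue, strain and medium together, P and N in EGF, serum, hydrocortisone and time, and PRL and P in prolactin and time. Each model is 1 cell line. The labels do not say whether the 2 libraries of a state came from separate cultures, and p-values here reflect only how far such libraries differ, which may be technical. In bulk RNA, fewer cells that make a transcript and less transcript per cell cannot be told apart.

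Semaphorins bind plexins, whose cytoplasmic part acts on small GTPases and thereby on the actin skeleton. The secreted class 3 semaphorins mostly need a neuropilin as coreceptor, while the membrane-bound classes bind plexins directly. Ephrins are membrane-bound ligands: the A-type is anchored by a lipid and mainly binds EphA receptor tyrosine kinases, the B-type crosses the membrane and mainly binds EphB receptors, and both partners can signal into their own cell. In epithelia these families set boundaries between cell groups and shape tubes. In the mouse mammary gland the receptor EphA2 takes part in duct branching, and the pair of ephrin-B2 and EphB4 is expressed under the influence of oestrogen.

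The libraries held 11938392 to 33916913 fragments, fewest in ESC. The pluripotency markers were between 265 and 1736 FPKM in ESC and at most 0.682 in HC11. The basal keratins Krt5 and Krt14 were at most 0.202 FPKM in ESC and at least 110 in HC11, and the milk protein gene Csn2 was at 128 and 111 FPKM in PRL and at most 0.32 elsewhere. ESC replicate 1 stood apart from ESC replicate 2 in fibroblast genes: 14 fibroblast markers summed to 278 and 41.7 FPKM in them, and 10 of the 11 that averaged 1 FPKM or more were at least 2-fold higher in replicate 1. Of the 31 members that ESC expressed at this level, 7 were likewise at least 2-fold higher in replicate 1 (22.6%), namely Efna1, Efna5, Ephb6, Plxnd1, Sema3f, Sema4c and Sema6b, against 820 of 12016 of all genes (6.82%), and 0 members were in replicate 2. HC11 cells carried 7 or 8 of these markers at 1 FPKM or more themselves, led by Postn, while the fibroblast marker Thy1 was at most 0.0252 FPKM there. The part of feeder RNA in the ESC levels was not tested, and for N against ESC the counts, and the fold changes of the called genes among these 7, are also given without each ESC library. Proliferation changed with the states as well: the 4 markers Mki67, Top2a, Ccna2 and Ccnb1 summed to 319 and 312 FPKM in N, 30.4 and 32.7 in P, and 4.5 and 4.18 in PRL. Its part in the results below was not tested.

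ESC expressed 31 members at a mean of 1 FPKM or more, N 30, P 33 and PRL 27. Of these, 21 were expressed in all 4 states, 5 in ESC alone, and 7 in at least 1 HC11 state but not in ESC, while 13 were expressed in none. These overlaps were not set against those of all genes. The member with the largest share of a family often differed between ESC and HC11, though not among the plexins. The summed FPKM of the semaphorins were 81.8 ± 10.2, 156 ± 0.561, 195 ± 1.81 and 116 ± 2.87 from ESC through N and P to PRL (mean ± SD of 2 libraries). Those of the plexins were 63.1 ± 14.4, 133 ± 9.15, 146 ± 2.05 and 117 ± 2.74 in the same order. The summed EphB receptors were at 39.1 ± 8.39, 122 ± 1.45, 123 ± 2.59 and 81 ± 1.03 FPKM. The EphA receptors were the exception among the 6 families, with the highest sum in ESC: 108 ± 15.1 FPKM, then 42.4 ± 2.02, 49.3 ± 0.197 and 44.4 ± 1.34.

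**Figure D1:**
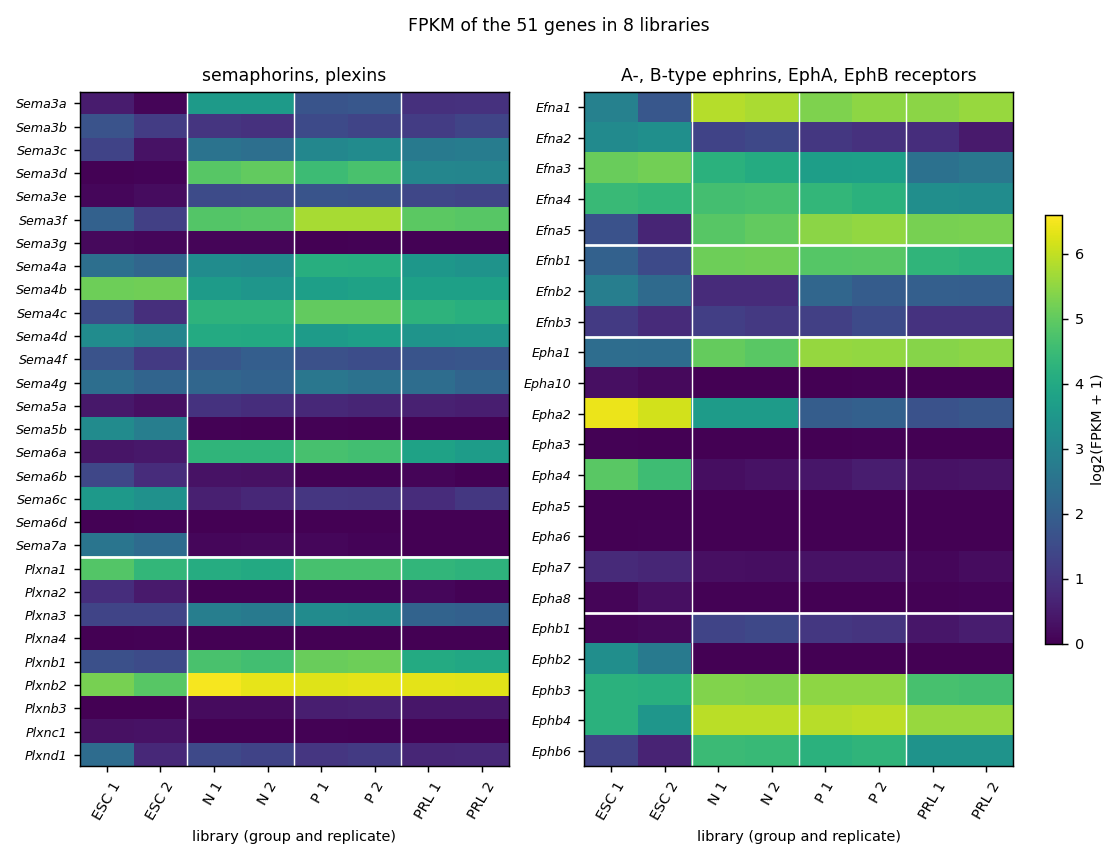
Level of each of the 51 genes (rows, by family) in the 8 libraries (columns), as log2(FPKM + 1) on a colour scale. White lines separate families and states. The receptor Epha2 is brightest in ESC at 84.5 and 69.6 FPKM, the plexin Plxnb2 is bright in all 8 libraries, and 6 EphA receptors are dark throughout.

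Among the genes that were not tested, 6 were EphA receptors: Epha3, Epha5, Epha6, Epha7, Epha8 and Epha10. Epha5 was listed at 0 in all 8 libraries. Epha7 was the highest of them, at 0.732 and 0.629 FPKM in ESC and at most 0.26 in HC11. The plexins left out were Plxna2, Plxna4, Plxnb3 and Plxnc1, and the semaphorins were Sema3g, Sema5a, Sema6b and Sema6d. Plxnc1, the plexin that binds Sema7a, had 0.222 and 0.25 FPKM in ESC and at most 0.0296 in HC11. Sema6b, a membrane semaphorin, had 1.64 and 0.8 FPKM in ESC and 0.248 or less in HC11, so that it reached 1 FPKM in 1 library only. Sema5a came closest to the limit by its second highest library, with 0.968 and 0.816 FPKM in N and at most 0.705 elsewhere. By the same measure, the closest member inside the filter was Efnb3, with 1.36 and 1.77 FPKM in P.

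Normal HC11 cells were first compared with ESC, which asks how a mammary epithelial cell differs from a pluripotent one. Of the 37 members tested, 17 were upregulated in N, 10 were downregulated and 10 were not called, at a fold change of at least 2 and an adjusted p under 0.001 in limma. Across all 13210 genes tested, 15.6% were upregulated and 20.7% downregulated. The median log2 fold change (log2FC) was 0.93 over the members and −0.07 over all genes. Leaving out ESC replicate 1 gave 19 members up and 10 down, and leaving out ESC replicate 2 gave 18 and 9. Each log2FC is of FPKM + 1 and is given with its standard error (SE), on a scale that understates the change of genes that are near 0 in 1 state. The fit takes the spread of a gene from all 4 states, so a difference between the ESC libraries also enters the tests between HC11 states.

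Of the 6 secreted class 3 semaphorins tested, 4 were upregulated in N and 0 downregulated. Sema3d, a ligand that guides axons and endothelial cells, had 0.0209 and 0.0514 FPKM in ESC, which are 2 and 4 fragments, and 28.7 and 31.1 FPKM in N. It rose by a log2FC of 4.90 (SE 0.10, limma adjusted p = 8.4e-08). Sema3a, the founding repellent of axons, had 0.41 and 0.0575 FPKM in ESC and 11.1 and 11 in N, with a log2FC of 3.30 (SE 0.14). Both genes were thus nearly silent in each ESC library and clearly present in each N library. Sema3f, which signals through neuropilin 2, had 3.11 and 1.36 FPKM in ESC and 27.6 and 28.8 in N, with a log2FC of 3.23 (SE 0.23), or 3.63 without ESC replicate 1 and 2.83 without replicate 2. Sema3e, a ligand of plexin D1, rose from 0.0892 and 0.159 FPKM to 1.85 and 1.92. Sema3c had 1.51 and 0.254 FPKM in ESC and 4.67 and 4.32 in N and was not called (log2FC 1.63, adjusted p = 0.00188). Its groups did not overlap. Without ESC replicate 1 or 2 its log2FC was 2.13 or 1.13, with an adjusted p of at most 6.0e-05 in a fit where the spread comes from the HC11 groups alone, and without an N library the adjusted p was 0.0148 and 0.012. Sema3b had 2.2 and 1.26 FPKM in ESC and 1.03 and 0.912 in N and was not called.

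The membrane-bound semaphorins moved in both directions. Sema6a, a transmembrane semaphorin, had 0.296 and 0.352 FPKM in ESC and 19.0 and 18.9 in N, and Sema4c, a ligand of plexin B2, had 1.91 and 0.836 in ESC and 18.3 in both N libraries. They rose with log2FC of 3.91 (SE 0.09) and 3.06 (SE 0.20), the latter 3.39 without ESC replicate 1 and 2.73 without replicate 2. Against these, 4 membrane-bound members were downregulated. Sema4b, the leading semaphorin of ESC, fell from 34.4 and 35.0 FPKM to 11.4 and 10. Sema6c fell from 10.8 and 9.08 FPKM to 0.502 and 0.657, and Sema5b, which carries thrombospondin repeats, from 8.12 and 6.05 to 0.0188 and 0.00958. Sema7a, a lipid-anchored semaphorin that also binds integrins, fell from 4.94 and 3.99 FPKM to 0.0916 and 0.107. The adjusted p of these 4 genes in limma ranged from 2.0e-06 to 4.2e-06. Sema4a and Sema4d passed the adjusted p but had log2FC of 0.88 and 0.93, and Sema4f and Sema4g were not called.

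Of the receptors of semaphorins, 3 plexins were upregulated and none of the 5 tested was downregulated. Plxnb1, the receptor of Sema4d, had 2.04 and 1.85 FPKM in ESC and 25.1 and 23.5 in N (log2FC 3.10 ± 0.08 SE, limma adjusted p = 2.1e-07). Plxna3, which works with neuropilin 2, had 1.55 and 1.56 in ESC and 6.08 and 5.52 in N. Plxnb2, which binds class 4 semaphorins, was the most abundant plexin of both cells, with 37 and 28.3 FPKM in ESC and 90.0 and 80.6 in N (log2FC 1.37 ± 0.13 SE). Its call was lost without N replicate 1, at an adjusted p of 0.00106. Plxna1 stood at 27.4 and 19.8 FPKM in ESC and 16.1 and 15.1 in N and was not called. Plxnd1 was at 4.08 and 0.691 FPKM in ESC, a spread that spanned both N values of 1.76 and 1.5. The coreceptors Nrp1 and Nrp2 were at 1.12 ± 1.03 and 9.69 ± 2.14 FPKM in ESC and at 8.15 ± 0.235 and 26.2 ± 1.45 in N. The log2FCs were 2.20 and 1.36, and both passed the thresholds. The adjusted p of Nrp1 rose as high as 0.0053 when any of the 6 HC11 libraries was left out, and that of Nrp2 as high as 0.00164 without an N library, so neither call held there.

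Of the A-type ephrins, 2 rose and 2 fell. Efna5 had 2.15 and 0.605 FPKM in ESC and 28.3 and 31.3 in N (log2FC 3.77 ± 0.28 SE), and Efna1, a strong ligand of EphA2, had 6.5 and 2.45 in ESC and 57.6 and 53.7 in N (3.48 ± 0.32 SE). These are 2 of the genes that were over 2-fold higher in ESC replicate 1. The log2FC of Efna5 was 4.26 without that library and 3.29 without the other, and that of Efna1 4.04 and 2.92. The call of Efna1 was lost without either N library (adjusted p 0.00116 and 0.00102). Efna2 moved the other way, from 7.91 and 8.69 FPKM to 1.51 and 1.72 (log2FC −1.83 ± 0.15 SE). Efna3 fell from 33.4 and 35.8 FPKM to 17.5 and 15.7 and sat at the threshold, with a log2FC of −1.02 that shrank to −0.97 without ESC replicate 2 and to −0.95 without N replicate 2. Efna4 was at 21.1 and 19.6 FPKM in ESC and 23.6 and 24.5 in N and was not called (log2FC 0.23, adjusted p = 0.036).

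Of the B-type ephrins, Efnb1 rose from 3.11 and 1.77 FPKM to 34.4 and 35.3 (log2FC 3.41 ± 0.17 SE, limma adjusted p = 4.0e-06). Efnb2 fell from 6.05 and 3.82 FPKM to 0.764 and 0.748 (−1.73 ± 0.19 SE), a call that was lost without either N library (adjusted p up to 0.00196). So Efnb1 made up 30.1% and 27.9% of the B-type ephrin FPKM in the ESC libraries and 94.3% and 95% in the N libraries. Efnb3 was between 0.756 and 1.32 FPKM in these 4 libraries and was not called.

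The Eph receptors also moved in both directions. Epha2 was the most abundant Eph receptor of ESC, with 84.5 and 69.6 FPKM, and fell to 11.4 and 11.3 in N (log2FC −2.65 ± 0.11 SE, limma adjusted p = 1.7e-06). Epha4, which binds ephrins of both types, fell from 28.9 and 22.5 FPKM to 0.176 and 0.241 (−4.45 ± 0.13 SE). Epha1 rose from 4.09 and 4.07 FPKM to 32.0 and 29.1 (2.63 ± 0.07 SE). EphA receptors were thus led by Epha2 in ESC, with 71.3% and 71.7% of the family, and by Epha1 in N, with 73% and 71.2%. Among the EphB receptors, Ephb2 fell from 8.51 and 5.47 FPKM in ESC to 0.00883 and 0.018 in N, which are 1 and 2 fragments. The other 4 EphB receptors rose. Ephb4, the receptor of Efnb2, had 17.5 and 9.99 FPKM in ESC and 59.7 and 59.1 in N (2.08 ± 0.21 SE), and its call was lost without either N library (adjusted p up to 0.00171). Ephb3 rose from 17.5 and 17.0 FPKM to 40.0 and 39.2, and Ephb6, a member without kinase activity, from 1.45 and 0.579 to 21.8 and 21.0 (3.51, or 3.83 without ESC replicate 1 and 3.19 without replicate 2). Ephb1 rose from 0.0728 and 0.108 FPKM to 1.54 and 1.68, so it remained the lowest of the 4 in N.

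**Figure D2:**
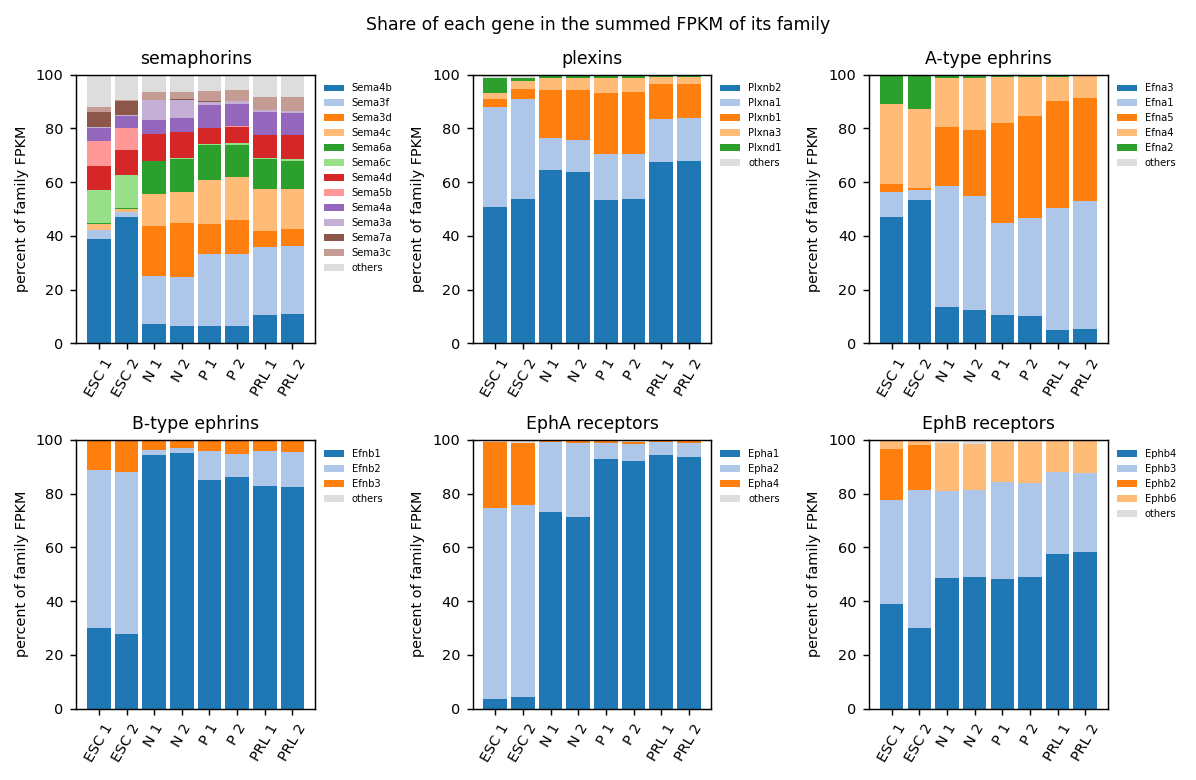
Share of each gene in the summed FPKM of its family (vertical axis, percent) in the 8 libraries. The leading member differs between ESC and HC11 for the semaphorins (Sema4b in ESC, Sema3d in N, Sema3f in P and PRL), A-type ephrins, B-type ephrins, EphA receptors and EphB receptors (Ephb3 in ESC by their means, Ephb4 in HC11), while Plxnb2 leads the plexins in every library at 50.6% to 68%.

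The second comparison, of primed with normal cells, asks what EGF withdrawal, less serum, hydrocortisone and the added time do together. Here 0 of 37 members were upregulated and 2 were downregulated, against 4.54% and 4.1% of all genes. At an unadjusted limma p under 0.05, 13 members were higher and 8 lower in P, against 3709 and 3320 of all 13210 genes. The median log2FC was 0.13 over the members and 0.02 over all genes. The 2 members were the repellent ligand Sema3a and the receptor Epha2.

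Sema3a had 11.1 and 11 FPKM in N, 2.3 and 2.48 in P and 0.89 and 0.906 in PRL. The mean was 4.62-fold lower in P than in N. The log2FC was −1.83 (SE 0.14, limma adjusted p = 0.000134). Epha2 had 11.4 and 11.3 FPKM in N, 2.83 and 3.04 in P and 2.14 and 2.38 in PRL. Its mean was 3.88-fold lower in P than in N (log2FC −1.66 ± 0.11 SE, limma adjusted p = 6.3e-05). Both genes missed the adjusted p when any 1 of the N or P libraries was left out, at 0.00225 to 0.0027 for Sema3a and 0.00133 to 0.00154 for Epha2, with log2FC of −1.79 to −1.87 and −1.62 to −1.69. With a pseudocount of 0.1 the adjusted p of Sema3a was 0.013. The basal keratins were lower beside them: Krt5 had 1452 and 1448 FPKM in N and 279 and 285 in P. Krt14 had 2096 and 2058 FPKM in N and 590 and 618 in P. The basal marker Trp63 was not lower, at 15.6 FPKM in both N libraries and 18 and 16.9 in P. The part of a change in cell state was not tested.

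The DNA before a RefSeq start of Sema3a and of Epha2 is shown because they were the members that passed the thresholds on priming. Each line gives 200 bases that end next to the start of a RefSeq transcript (GRCm38.p6), and the capitals mark matches on either strand to 8 short motifs: the cAMP response element (CRE) TGACGTCA, the AP-1 site TGANTCA, the STAT site TTCNNNGAA, the glucocorticoid receptor half-site AGAACA, the TEAD site GGAATG, the CCAAT box CCAAT, the GC box GGGCGG and the TATA box TATAAA.
Sema3a, chr5:13396584-13396783, plus strand: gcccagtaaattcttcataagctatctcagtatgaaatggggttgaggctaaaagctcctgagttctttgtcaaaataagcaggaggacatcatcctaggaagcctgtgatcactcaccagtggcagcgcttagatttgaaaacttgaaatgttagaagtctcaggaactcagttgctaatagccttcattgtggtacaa
Epha2, chr4:141301021-141301220, plus strand: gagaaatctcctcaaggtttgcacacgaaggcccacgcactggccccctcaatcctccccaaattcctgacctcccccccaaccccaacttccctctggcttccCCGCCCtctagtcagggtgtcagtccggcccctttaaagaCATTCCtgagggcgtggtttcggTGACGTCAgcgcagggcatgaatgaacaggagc
The Sema3a window, with a GC content of 42%, held none of the motifs. The RefSeq gene of Sema3a begins at 13124822, far upstream of the start used here, so this window lies inside the gene. The Epha2 window held a GC box, a TEAD site and a full CRE whose first base is 33 bases before the start. Over 250 bases before the start, 1.55% of 32851 promoters in the RefSeq table hold this CRE, and of the 59 promoters of members it was in 1. The matches shown do not overlap each other, and a match is a run of letters and no measure of binding.

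The remaining members did not pass both thresholds on priming. Efnb2 had 0.764 and 0.748 FPKM in N, 3.53 and 2.8 in P and 2.96 and 2.89 in PRL, without overlap between N and P. Its log2FC of 1.24 (SE 0.19) came with an adjusted p of 0.00211, which was 0.000109 and 0.000108 without ESC replicate 1 and 2, and up to 0.0214 without an N or P library. It passed after median ratio scaling (1.21, adjusted p = 0.000999) and quantile normalization (1.04, adjusted p = 0.000877). Sema4a, a class 4 ligand with known roles in immune cells, had 8.25 and 7.85 FPKM in N and 16.7 and 16.3 in P (log2FC 0.95, adjusted p = 0.000427), and Epha1 had 32.0 and 29.1 in N and 45.7 and 45.6 in P (0.57, adjusted p = 0.000868). These passed the adjusted p but not the fold. Sema3f had 27.6 and 28.8 FPKM in N and 52.0 and 52.1 in P, and Sema4c had 18.3 in both N libraries and 31.6 and 31.1 in P. In ESC, whose libraries enter the shared spread, Sema3f had 3.11 and 1.36 FPKM and Sema4c 1.91 and 0.836. The N and P groups of both genes did not overlap, and their adjusted p in limma were 0.0212 and 0.0211. Without ESC replicate 1 these were 2.1e-05 and 7.2e-05, at log2FC of 0.86 and 0.74, short of the 2-fold change, and without an N or P library they were 0.0795 to 0.0973 and 0.0873 to 0.098. In P, Sema3f had become the leading semaphorin, with 26.9% and 26.6% of the family, and Epha1 made up 93% and 92.3% of the EphA receptors. Plxnb2 was at 77.1 and 79.2 FPKM and Ephb4 at 58.3 and 61.0 FPKM in P, with log2FC of −0.12 and 0.01 from N.

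**Figure D3:**
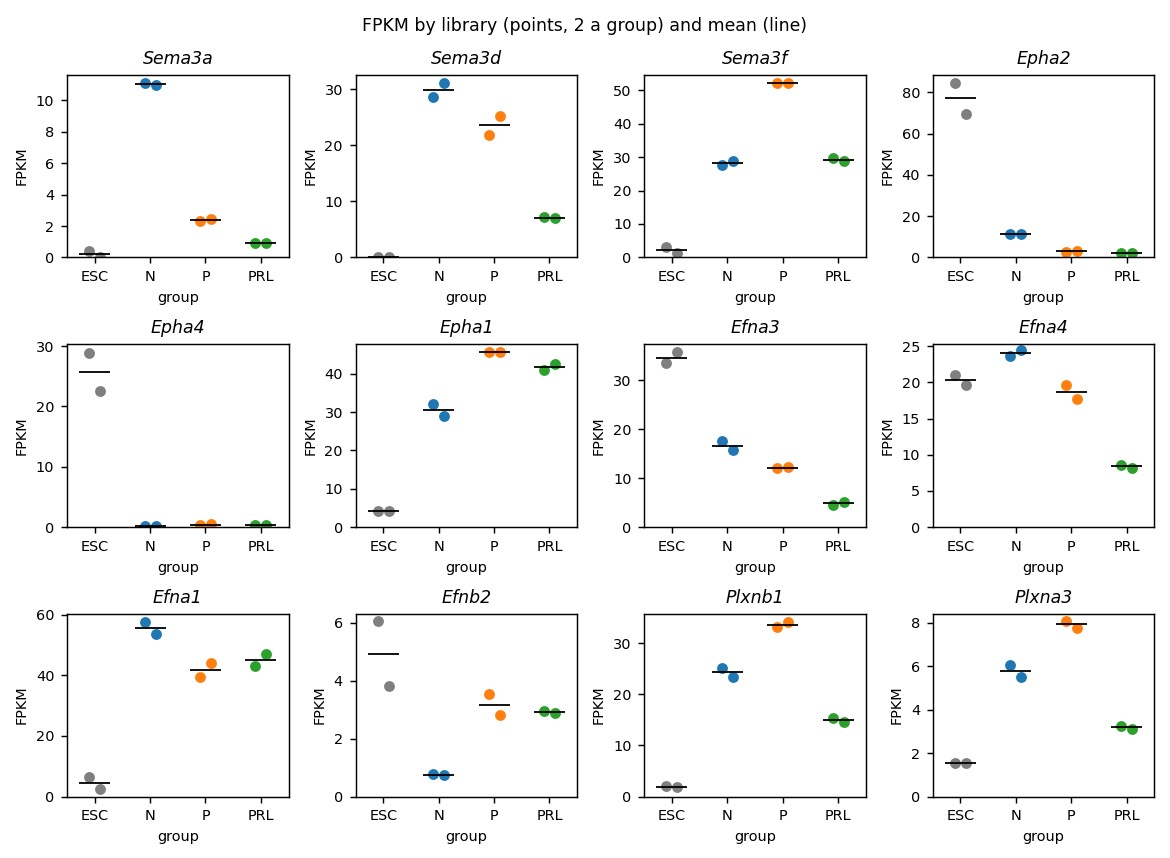
FPKM (vertical axes, each from 0) of 12 members in the 4 states; points are the 2 libraries of a state and lines their mean. Sema3a and Epha2 drop between N and P, Sema3d, Plxnb1, Plxna3, Efna3 and Efna4 between P and PRL, and Efnb2 is lowest in N at 0.764 and 0.748 FPKM.

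PRL treated cells were compared with primed cells, which asks what prolactin and the added time do together. Of the 37 members, 0 were upregulated and 5 were downregulated, against 0.689% and 1.44% of all genes. At an unadjusted limma p under 0.05, 0 were higher and 19 lower, against 1450 and 4605 of all 13210 genes. In all, 33 members had a negative fold change, with a median of −0.34, but so had 67.4% of all genes, whose median was −0.15. Below that median were 26 of the 37 members. Scaling the libraries by their median ratio or by quantiles set the median of all genes to 0.00 and turned the calls of all genes from 32.4% upregulated to 59.1% and 57.9%. Changes of members are therefore read against the shift of −0.15.

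Sema3d had 28.7 and 31.1 FPKM in N, 21.9 and 25.3 in P and 7.16 and 6.97 in PRL. The mean was 3.33-fold lower in PRL than in P (log2FC −1.60 ± 0.10 SE, limma adjusted p = 0.000258). Its log2FC was −1.40 after median ratio scaling and −1.43 after quantile normalization, and it was the only member that passed the thresholds under both. Sema3d, the first semaphorin of N with 18.5% and 19.9% of the family, was down to 6.09% and 6.14% in PRL.

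Efna3 and Efna4, A-type ephrins, fell together with it. Efna3 had 12.0 and 12.2 FPKM in P and 4.55 and 5.17 in PRL (log2FC −1.16 ± 0.09 SE), and Efna4 had 19.6 and 17.7 in P and 8.61 and 8.22 in PRL (−1.06 ± 0.08 SE). Their neighbour Efna1 had 39.4 and 43.9 FPKM in P and 43.0 and 46.9 in PRL (0.11, adjusted p = 0.856). These 3 genes lie close together on chromosome 3 of GRCm38, Efna1 from 89271730 to 89280951, Efna3 from 89313899 to 89322939 and Efna4 from 89333393 to 89338028, so the gaps between them are 32.9 and 10.5 kb. The plexins Plxnb1 and Plxna3 fell as well, Plxnb1 from 33.1 and 34.2 FPKM in P to 15.3 and 14.6 in PRL (−1.12 ± 0.08 SE), and Plxna3 from 8.1 and 7.77 to 3.27 and 3.1 (−1.09 ± 0.09 SE). The adjusted p of these 4 genes in limma were between 0.000368 and 0.000587. After median ratio scaling their log2FC were −0.86 to −0.97, and after quantile normalization −0.79 to −0.99, short of the threshold of fold. Efna3 also missed the limma adjusted p under both (0.00161 and 0.00125), and Plxna3 missed it after quantile normalization (0.00594). All 5 calls, Sema3d included, were lost when any 1 of the 6 HC11 libraries was left out, at adjusted p from 0.00188 to 0.0119, with log2FC of −1.50 to −1.70 for Sema3d and −0.99 to −1.24 for the others.

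The DNA before the starts of 4 of these 5 genes is given in the same way. Efna3 has 2 starts in the table and is not shown.
Sema3d, chr5:12382966-12383165, plus strand: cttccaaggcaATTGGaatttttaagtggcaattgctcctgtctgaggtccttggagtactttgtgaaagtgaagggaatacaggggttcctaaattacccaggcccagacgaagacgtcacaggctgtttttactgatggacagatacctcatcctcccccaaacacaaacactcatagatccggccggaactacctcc
Plxnb1, chr9:109095236-109095435, plus strand: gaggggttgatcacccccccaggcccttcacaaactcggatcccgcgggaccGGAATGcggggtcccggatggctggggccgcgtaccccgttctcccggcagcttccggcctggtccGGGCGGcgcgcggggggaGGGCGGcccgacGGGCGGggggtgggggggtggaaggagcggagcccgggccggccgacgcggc
Plxna3, chrX:74328866-74329065, plus strand: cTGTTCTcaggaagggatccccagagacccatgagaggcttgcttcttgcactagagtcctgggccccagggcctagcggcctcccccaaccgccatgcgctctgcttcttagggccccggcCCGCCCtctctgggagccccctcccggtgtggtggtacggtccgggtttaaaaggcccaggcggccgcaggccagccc
Efna4, chr3:89338029-89338228, minus strand: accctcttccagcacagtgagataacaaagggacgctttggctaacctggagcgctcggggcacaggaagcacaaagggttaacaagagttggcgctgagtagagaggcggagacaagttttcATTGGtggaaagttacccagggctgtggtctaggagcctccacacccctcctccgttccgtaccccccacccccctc
The windows have little in common: 48% GC with 1 CCAAT box in Sema3d, 78.5% GC with 3 GC boxes and a TEAD site in Plxnb1, 68% GC with a GC box and a glucocorticoid receptor half-site in Plxna3, and 57.5% GC with a CCAAT box in Efna4. None held a STAT site. Over 250 bases, 7.02% of all promoters and 3.39% of the promoters of members hold one, so its absence from 4 shorter windows says little. The RefSeq genes of Plxnb1 and Plxna3 begin upstream of these starts as well, at 109093849 and 74328290, so their windows lie inside them. Over all 59 promoters of 45 members in the table, the GC box was in 44 (74.6%), against 32.7% of all promoters, and the TATA box in 1.69% against 12.4%. The median GC content of the 250 upstream bases was 64% and the median number of CpG 16, against 52.4% and 6 over all promoters. Several promoters belong to 1 gene, so these are descriptions of sequences and not of independent genes. The 32851 promoters belong to 27025 genes that were not selected by gene type, whereas all members code for proteins, so the 2 sets are not matched.

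The other members did not pass both thresholds between P and PRL. Among them were 2 genes at low levels whose means differed by more than those of some called genes: Sema3a, given above, was 2.66-fold lower in PRL (log2FC −0.84, adjusted p = 0.00614), and Ephb1, at 1.11 and 0.993 FPKM in P and 0.319 and 0.436 in PRL, was 2.78-fold lower (−0.57, adjusted p = 0.00423). Sema6a, with 24.8 and 23.5 FPKM in P and 13.0 and 11.5 in PRL, and Ephb3, with 43.6 and 43.2 in P and 24.8 and 23.8 in PRL, passed the adjusted p with log2FC of −0.92 and −0.81, or −0.78 and −0.67 against the median of all genes. After median ratio scaling the log2FC were −0.72 and −0.60 and neither passed (adjusted p 0.00175 and 0.00146). Sema3f was at 29.6 and 28.8 FPKM in PRL and Sema4c at 18.3 and 17.0, next to 27.6 and 28.8, and 18.3 in both libraries, in N. Both genes were therefore higher in P than in the states before and after it, without overlap, although neither step passed the thresholds. Sema4a, at 10.2 and 9.52 FPKM in PRL, was likewise lower than in P. Plxnb2 had 77.1 and 79.2 FPKM in P and 80.0 and 78.1 in PRL (log2FC 0.02). Epha1 stood at 41.0 and 42.5 FPKM and Efna5 at 37.3 and 37.5 in PRL, close to their values in P.

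**Figure D4:**
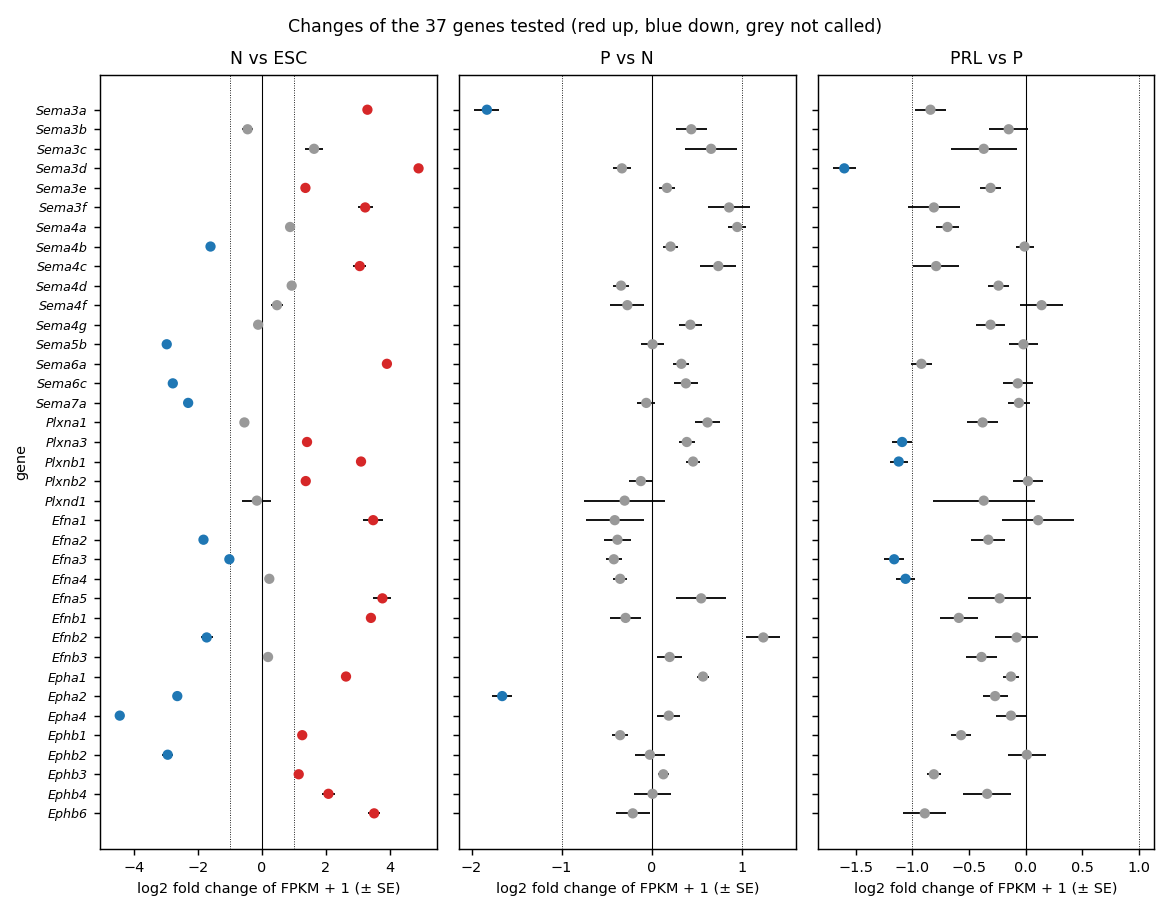
Log2 fold change of FPKM + 1 (horizontal axes, which differ in range) of the 37 members tested, with the standard error as a bar, for N against ESC, P against N and PRL against P. Red points are upregulated and blue points downregulated at the thresholds, dotted lines mark a 2-fold change, and most points lie left of 0 in the comparison of PRL with P.

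Over the whole course from N to PRL, 0 members were upregulated and 5 downregulated, against 5.47% and 8% of all genes. At an unadjusted limma p under 0.05, 4 were higher and 14 lower, against 2792 and 4979 of all 13210 genes. This comparison shares its libraries with the steps above. Sema3a was 12.3-fold lower in PRL than in N (log2FC −2.67 ± 0.14 SE, limma adjusted p = 1.7e-05), Epha2 5.04-fold, Sema3d 4.23-fold, Efna3 3.41-fold and Efna4 2.85-fold. The median log2FC of all genes was −0.12, and median ratio scaling or quantile normalization turned their calls from 40.6% upregulated to 54.1% and 52.2%. All 5 members passed the thresholds under both scalings, with log2FC from −1.22 for Efna4 to −2.54 for Sema3a. Leaving out any single library kept all 5 past the thresholds, with adjusted p of at most 0.000629. The call of Sema3a was lost with a pseudocount of 0.1, at an adjusted p of 0.00135. Ephb6, at 21.8 and 21.0 FPKM in N and 9.55 and 9.4 in PRL, had a log2FC of −1.10 with an adjusted p of 0.00302, which was 1.4e-05 without either ESC library and 0.0199 to 0.0242 without an N or PRL library. Efnb2 had a log2FC of 1.16 with an adjusted p of 0.00212, which was 0.0001 without either ESC library and 0.0162 to 0.0193 without an N or PRL library. It passed after median ratio scaling (1.30, adjusted p = 0.000515) and quantile normalization (1.28, adjusted p = 0.000254). Epha2, Epha1 and Efna1 were thus at 2.14 and 2.38, 41.0 and 42.5, and 43.0 and 46.9 FPKM at the end, and the pair of Ephb4 and Efnb2 at 47.1 and 46.7 and at 2.96 and 2.89 FPKM.

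The genes that carry the signal of these receptors were followed in fixed lists. Of 44 coreceptors and effectors of semaphorins, 35 were tested. From ESC to N, 12 rose and 5 fell, against 15.6% and 20.7% of all genes. Among them the collapsin response mediator Dpysl2 rose from 1.37 ± 1.13 to 26.5 ± 0.242 FPKM (log2FC 3.62), the receptor kinase Met rose from 1.7 ± 0.731 to 18.1 ± 1.05 (2.85), and Mical1, an oxidase of actin that binds plexins, fell from 14.6 ± 0.242 to 0.0363 ± 0.0167 (−3.91). From N to P, 0 rose and 2 fell (3 and 9 at an unadjusted p under 0.05). Those called were Nrp2, from 26.2 ± 1.45 to 7.48 ± 0.0663 FPKM (−1.68, limma adjusted p = 0.000153), and Cfl1, the actin-severing cofilin, from 858 ± 9.93 to 382 ± 0.7 (−1.17). The adjusted p of Nrp2 reached 0.00283 with any 1 HC11 library left out and that of Cfl1 0.00143 without an N or P library, above the threshold of 0.001. Nrp1 went from 8.15 ± 0.235 to 3.64 ± 0.374 and 1.75 ± 0.222 FPKM in N, P and PRL and was called at no step (−0.98 and −0.75). From P to PRL 0 rose and 0 fell in limma (1 and 11 unadjusted), and from N to PRL 0 rose and 3 fell (2 and 16 unadjusted), namely Nrp2 (−2.04), Cfl1 (−1.24) and the plexin partner Ptk7 (−1.08). Nrp2 missed the adjusted p without PRL replicate 2, at 0.00104, and Ptk7 was not called under either other scaling. At an unadjusted limma p under 0.05, 3709 of all 13210 genes were higher and 3320 lower from N to P. From P to PRL these were 1450 and 4605, and from N to PRL 2792 and 4979. Called up and down were 4.54% and 4.1% of all genes from N to P. These shares were 0.689% and 1.44% from P to PRL, and 5.47% and 8% from N to PRL. The shares of the 35 list genes that fell from N to P and from N to PRL were thus near those of all genes.

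Of 43 effectors of Eph receptors and ephrins, 36 were tested. From ESC to N, 6 rose and 4 fell, so the share that rose was near the 15.6% of all genes and the share that fell was below their 20.7%. The exchange factor Ngef, which couples EphA receptors to RhoA, rose from 0.311 ± 0.299 to 41.7 ± 2.84 FPKM (log2FC 5.04 ± 0.15 SE, limma adjusted p = 4.8e-07), and the adaptor Nck2 from 6.61 ± 2.13 to 31.6 ± 0.875 (2.13). The exchange factor Arhgef16 fell from 8.18 ± 0.0696 to 0.295 ± 0.0376 (−2.83). In the steps from N to P and from P to PRL none of the 36 was called in limma, with 9 higher and 3 lower, and 1 higher and 16 lower, at an unadjusted p under 0.05. From N to PRL 0 rose and 2 fell, against 5.47% and 8% of all genes. Ngef fell to 16.3 ± 0.724 FPKM (−1.30) and the kinase Yes1 from 7.84 ± 0.434 to 3.2 ± 0.0521 (−1.07). The adjusted p of Ngef reached 0.00754 when any 1 HC11 library was left out, and Yes1 was likewise not called when any 1 of them was left out. The median log2FC of the list was 0.13, 0.05 and −0.24 at the 3 steps, and that of the semaphorin list was 0.67, −0.07 and −0.20, next to −0.07, 0.02 and −0.15 over all genes.

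The positions of the members on GRCm38 show 2 further groups of neighbours with unlike levels. Sema3d, Sema3a and Sema3e follow each other on chromosome 5 with gaps of 536 and 422 kb. Sema3d and Sema3a fell between N and PRL, at different steps, whereas Sema3e was at 1.85 and 1.92 FPKM in N and 1.67 and 1.56 in PRL (log2FC −0.14, adjusted p = 0.222). Sema3b and Sema3f are 72.3 kb apart on chromosome 9, with Sema3b between 0.912 and 2.2 FPKM in all 8 libraries and Sema3f reaching 52.1.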

How the data were processed

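RNA of 8 libraries, 2 each of ESC, N, P and PRL, had been depleted of rRNA, selected with oligo(dT) and sequenced in pairs. The authors trimmed reads with Trimmomatic, aligned them to GRCm38/mm10 with TopHat 2.1.0 and counted them with featureCounts of Subread 1.5.0. The annotation and strand setting are not given in the sources used here, so overlapping antisense transcripts cannot be separated. The deposited table holds FPKM, computed by the authors for each library. The deposited tables of the authors' own comparisons, with DESeq2 fold changes and p-values, were not used.

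Genes with at least 1 FPKM in at least 2 of the 8 libraries (13210) were tested with limma 3.58.1 (statmod 1.5.0, R 4.3.3; lmFit, contrasts, eBayes with trend and robust) on log2(FPKM + 1), all 8 libraries in 1 fit with 4 residual degrees of freedom. Adjustment was by Benjamini-Hochberg across these genes, and calls needed a log2FC of 1 and an adjusted p under 0.001, as in the study's methods. The script was tested on simulated data. Depth was recovered from the FPKM: 99.84% of 11042 genes with at least 200 fragments gave a whole gene length within 0.05 bases, against 10% by chance. Depths and fragments were used for description only. Positions and promoters are from RefSeq (GRCm38.p6), in which all 51 members had a position and 45 a promoter. Other steps used Python 3.11.15 (pandas 2.3.3, numpy 2.4.6, matplotlib 3.10.9).

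All members could be named, as could in each list and comparison up to 4 called genes with the largest change, Nrp1, Nrp2, and markers that set libraries apart. Ptk7 was named because it is 1 of 3. The members and lists were chosen with earlier results of these data known. The alternatives were pseudocounts of 0.1 and 0.5, filters at 0 and 5 FPKM, scaling by the median ratio or by quantiles, array weights, a replicate block, fewer libraries, an adjusted p under 0.05, and leaving out each library.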

Additional observations from a re-analysis of the deposited data

How the results depend on the processing

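With 2 libraries a state, the counts of called members depend on the fit. The 17 members upregulated in N against ESC became 10 when only these 2 groups were fitted, and leaving out a library gave 14 to 19; the 10 downregulated gave 8 to 10. Between N and P, 1 member was upregulated instead of 0 with a pseudocount of 0.1, median ratio scaling, quantile normalization, array weights, the 6 HC11 libraries alone, or an adjusted p under 0.05, and 0 to 1 without a library. This was Sema4a with the pseudocount and Efnb2 otherwise. The 2 downregulated became 1 with a pseudocount of 0.1, and 0 to 2 without a library. Between P and PRL, the 5 downregulated became 2 without a filter, 1 with median ratio scaling, 1 with quantile normalization and 0 with a replicate block, and 0 to 5 without a library. None was upregulated under any alternative. Between N and PRL, 1 member was upregulated instead of 0 with a pseudocount of 0.1, median ratio scaling, quantile normalization, array weights, only the 2 groups compared, the 6 HC11 libraries alone, or an adjusted p under 0.05, and 0 to 1 without a library; 5 to 6 were downregulated. Deviations of replicates with the same number correlated weakly between states (−0.0275 to 0.0824, highest for P and PRL). Such correlations cannot decide whether the libraries were paired, and the labels do not say. Between P and PRL the replicate block left 31 of all genes upregulated and 14 downregulated, against 91 and 190 in the main fit. The causes of these changes were not tested. Over 82 member comparisons with an adjusted p under 0.05, 1402 values under alternatives kept their direction and side of the threshold, 77 lost it, 33 gained it and 1 reversed: Sema3e between P and PRL, with a log2FC of 0.03 after quantile normalization. Of 66 further comparisons, 18 changed sign under some alternative. Members below 0.1 FPKM rest on few fragments.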

Other observations

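Beside the 51 genes, 29 genes of other guidance families were followed in the same fit, of which 15 were tested. From ESC to N, 3 rose and 5 fell, against 15.6% and 20.7% of all genes. The ligand netrin 1, Ntn1, had 41.6 ± 4.62 FPKM in ESC and 0.634 ± 0.0509 in N (mean ± SD of 2 libraries, log2FC −4.70 ± 0.12 SE, limma adjusted p = 2.1e-07). Its receptor Unc5b moved the other way, from 8.22 ± 2.84 to 36.6 ± 1.4 FPKM (2.06 ± 0.19 SE), a call that was lost without N replicate 1, at an adjusted p of 0.00116. The Slit ligand Slit3 and the receptor Robo4 were at 3.85 ± 1.46 and 7.43 ± 2.45 FPKM in ESC and listed at 0 in both N libraries, and both were among the genes that fell.

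From N to P, 7 of the 15 guidance genes tested were higher and 3 lower at an unadjusted limma p under 0.05. Over all 13210 genes these were 3709 and 3320. In that step 1 gene of the list was called as upregulated and 1 as downregulated, against 4.54% and 4.1% of all genes. The upregulated gene was Ntn4, a netrin of basement membranes. It went from 1.19 ± 0.218 to 9.08 ± 0.255 FPKM (log2FC 2.21 ± 0.13 SE, limma adjusted p = 4.4e-05), and it stood at 4.58 ± 0.129 in PRL. Its adjusted p was at most 0.0012 with a library left out, and the call was lost without either P library. The lipid-anchored netrin Ntng1 fell from 1.97 ± 0.0648 FPKM in N to 0.428 ± 0.0244 in P and 0.155 ± 0.00674 in PRL. Its call in P was lost without any 1 of the N or P libraries (adjusted p up to 0.00215), and its call in PRL against N held without each library.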
